A study of Caenorhabditis elegans with 4 samples.

Results

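The X chromosome held 2009 of the 8678 regions at which the transcription factor CES-1 was called in embryos of the nematode Caenorhabditis elegans. Every row of the combined region list placed on X was taken, and the choice used the chromosome alone. CES-1 was mapped by ChIP-seq (chromatin immunoprecipitation followed by sequencing) in strain OP174, whose transgene wgIs174 encodes CES-1 fused to TY1, EGFP and FLAG tags. The transgene was introduced by bombardment into unc-119(ed3) animals, and both the immunoprecipitated and the Input material came from this genotype, in a mixed population of males and hermaphrodites grown at 20 degrees Celsius. There were 2 ChIP and 2 Input libraries. No label tells whether the ChIP replicates are separate cultures, and their spread can therefore be merely technical. The fusion protein was precipitated with antibodies to GFP, so the regions describe the tagged protein made from the transgene, whose expression pattern the labels call that of ces-1. All cells of the embryo were pooled, so a region cannot be assigned to a cell type.

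CES-1 is a zinc-finger protein of the Snail family, regulators of transcription that act in cell fate decisions, mostly as repressors. In C. elegans it is known for its part in whether the sister cells of the NSM neurons of the pharynx undergo programmed cell death, and Snail proteins bind short E-box sequences. The X chromosome differs from the autosomes in several known ways. Hermaphrodites carry a pair of X chromosomes and males a single X, and a dosage compensation complex lowers X transcription in hermaphrodite embryos. X is poor in genes expressed in the germ line. Autosomes have gene-dense centres flanked by arms that recombine more and hold more repeats, a contrast that is weaker on X.

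Each region carries the authors' peak number, in which 1 is the best, and coordinates are those of genome build WS220, counted from 1. The lists hold no read counts, so depth is unknown. The combined list was made from these replicates by a procedure not given in the sources used here. The replicates' own lists were therefore also cut to their 8678 best-numbered nuclear regions, and a spread given as SD (n = 2) is that between these lists. There is 1 condition and regions are not replicates, so no p-value is given. Where X is set beside another chromosome, the difference is read only against that spread.

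The best regions on X were spread over its length. Number 2 of the whole combined list, at X 16991313 to 16991788, was also number 2 in both replicates. Number 3 lay at X 10765961 to 10766513 (numbers 3 and 6 in replicates 1 and 2) and number 4 at X 5129361 to 5129857 (numbers 6 and 3). The region at X 16681852 to 16682303 was number 14 in the combined list, number 35 in replicate 1 and number 4 in replicate 2. The reverse held at X 7040694 to 7041152, number 15 in the combined list, number 5 in replicate 1 and number 29 in replicate 2. These were the 2 regions among the first 10 on X whose replicate numbers stood farthest apart.

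The other regions of the first 10 had closer numbers. The region at X 3875713 to 3876118 was number 20 in replicate 1 and 16 in replicate 2, and that at X 14648952 to 14649649 was number 14 and number 26. At X 15276700 to 15277122 the numbers were 27 and 18, at X 1120370 to 1120824 they were 22 and 27, and at X 11093771 to 11094358 they were 43 and 23. All 10 were thus within the first 43 of replicate 1 and the first 29 of replicate 2. The centre of each combined region lay at most 46.5 bp from the centre of the best-numbered replicate region that overlapped it. Genes at these positions are not named, because no annotation of build WS220 was used here.

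Counts in 1 Mb windows varied less along X than along the autosomes. In the 17 whole 1 Mb windows of X the combined list held from 75 to 154 regions, with a median of 115, and 14 of the windows held at least 100. The densest was X 4000001 to 5000000, with 154 regions in the combined list, 145 in replicate 1 and 156 in replicate 2. Next were X 2000001 to 3000000, with 148, 143 and 148 regions, and X 11000001 to 12000000, with 135, 135 and 137. The sparsest were the windows at the left end of the chromosome. X 1 to 1000000 held 75, 69 and 72 regions and X 1000001 to 2000000 held 80, 78 and 84. Next in the combined list came X 15000001 to 16000000, with 95, 101 and 103, but in both replicates X 16000001 to 17000000 held fewer, at 96 and 93. In no whole window did the replicates differ by more than 11 regions. All the whole windows named here lay farther than this from the combined median in both replicates. X 11000001 to 12000000 and the windows from X 15000001 to 17000000 did not stand apart from their neighbours in the order. The last, incomplete window (X 17000001 to 17717964) held 47 regions, or 65.5 per Mb.

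The coefficient of variation of the counts in 1 Mb windows (their SD divided by their mean) was 18.9% on X. It was 25.1% on III, 28.5% on I, 31.2% on IV, 43.2% on II and 53.9% on V. In the replicates' own lists it was 19.7% ± 0.422 (SD, n = 2) on X, and the lowest autosome was III, with 22.9% in replicate 1 and 25.2% in replicate 2. X was also lowest when only its 1024 best-numbered regions were used and every other chromosome was cut to the same number per Mb as V (18.4%, against 24.0% on III). Without the first and last 2 Mb of each chromosome it was 13.4% on X and 18.6% on III.

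Each chromosome was divided into 10 equal bins of its span, the length up to its last region in any list. The ratio of X to the autosomes together was highest in the second and ninth bins. In the second bin X held 133 regions per Mb and the autosomes together 51.3, a ratio of 2.59 in the combined list, 2.50 in replicate 1 and 2.76 in replicate 2. The ninth bin had 106 on X and 49.9 on the autosomes, a ratio of 2.13, with 2.06 and 2.21 in the replicates. X exceeded each of the 5 autosomes in both bins, in the combined list and in both replicates. The fifth bin differed little, with 118 regions per Mb on X and 110 on the autosomes. The ratio there was 1.08 in the combined list, 1.06 in replicate 1 and 0.989 in replicate 2, and in the combined list 2 of the 5 autosomes lay below X. The outermost bins of X were its sparsest, with 79.02 and 85.8 regions per Mb, and their ratios to the autosomes were 1.22 and 1.15. From its lowest to its highest bin the density of X rose 1.68-fold, against 2.16-fold on III and I, 2.24-fold on IV, 5.79-fold on V and 5.83-fold on II.

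**Figure D1:**
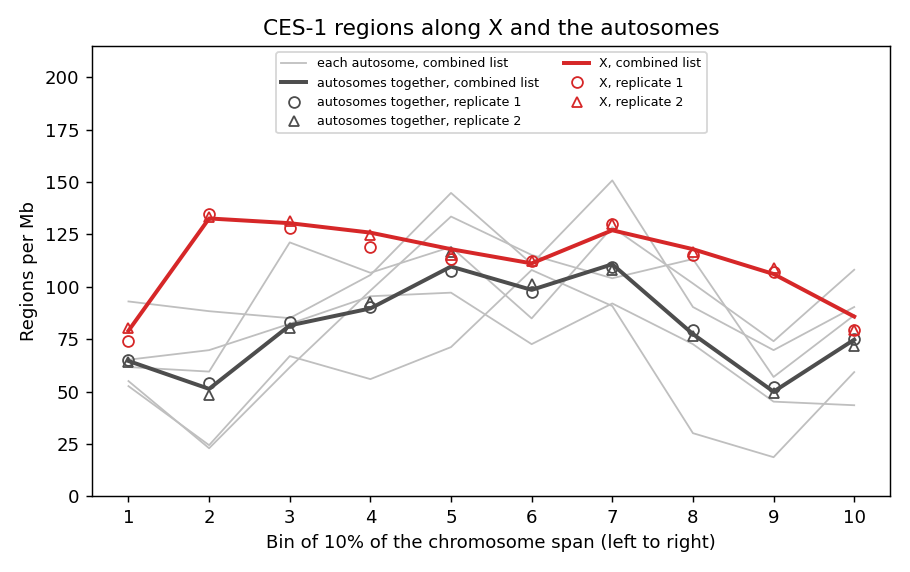
Regions per Mb (vertical axis) in each 10% of the chromosome span from left to right (horizontal axis), for X (red) and the autosomes (dark grey, with each autosome in light grey), where lines are the combined list and open symbols the best-numbered regions of each replicate. X lies at 133 against 51.3 in the second bin and at 118 against 110 in the fifth.

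Neighbouring regions were closer together on X, which held more regions per Mb. The median distance between the centres of neighbouring X regions was 3.44 kb, and it was 3.39 kb ± 0.0191 (SD, n = 2) in the replicates' own lists. On the autosomes together it was 4.07 kb in the combined list and 4.25 kb ± 0.0944 (SD, n = 2) in the replicates, the shortest in the combined list being that of I, at 3.66 kb. The closest 10% of neighbours differed little, since the 10th percentile was 0.714 kb on X and 0.719 kb on the autosomes. The 90th percentile was 23.5 kb on X and 33.3 kb on the autosomes, and the 99th was 62.5 and 106 kb. The mean distance was 2.53 times the median on X and 2.29 times on III, so by this ratio X was not the most even chromosome. With every chromosome cut to the same number of regions per Mb, by keeping the best numbered (all of them on V), the order of the medians turned. The median was then 7.98 kb on X, longer than on V (4.18 kb), IV (5.76 kb) and II (6.61 kb) and shorter than on I (8.15 kb) and III (8.92 kb).

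Long stretches with no combined region were fewer on X than on the autosomes together. Those longer than 10 kb numbered 282 per 10 Mb on X and 241 on the autosomes, and those longer than 20 kb were equally frequent, at 141 and 142. Of those longer than 50 kb, X had 26.0 per 10 Mb and the autosomes 39.6. Only 3 on X exceeded 100 kb, against 5 on III, 9 on I, 12 on II, 20 on IV and 31 on V. In the replicates' own lists X had 4 and 3 of them and III had 4 and 5, so X and III did not differ here beyond the replicates. Stretches over 50 kb made up 17.3% of X, 19.3% of III and 35.2% of the autosomes together. X and III did not differ in this beyond the replicates, since replicate 1 gave 17.7% on X and 17.1% on III. The chromosomes also differ in regions per Mb, although I, denser than III, had more stretches over 100 kb. The part of density in these counts was not tested. With every chromosome cut to the same number of regions per Mb, X had 13 stretches over 100 kb, fewer than I (15), II (17), IV (26) and V (31) but more than III (6).

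**Figure D2:**
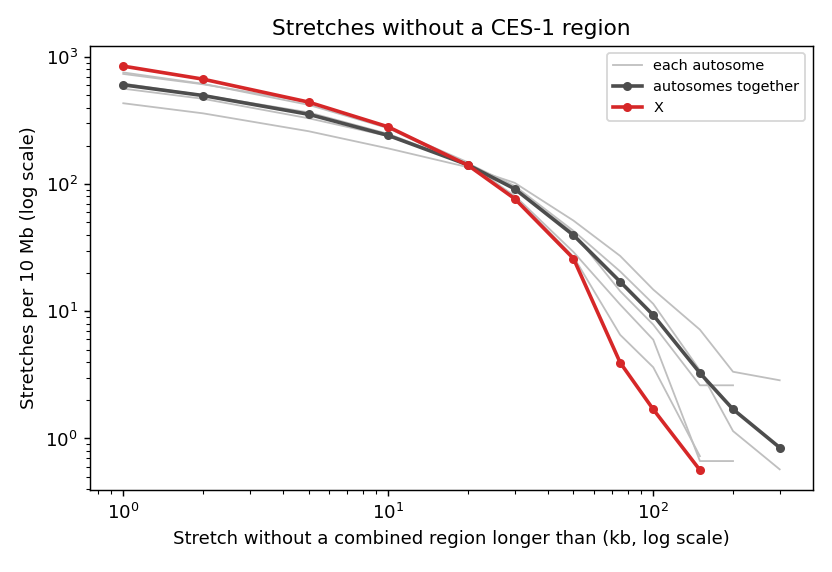
Number of stretches without a combined region per 10 Mb (vertical axis, log scale) that are longer than a given length in kb (horizontal axis, log scale), for X (red), the autosomes together (dark grey) and each autosome (light grey). The lines for X and the autosomes cross near 20 kb, at 141 and 142 per 10 Mb, and X falls to 1.69 against 9.33 at 100 kb.

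The longest such stretch on X, 158 kb, ran from X 147179 to 305130. It was bounded on the left by the first region of the chromosome, at X 146739 to 147178 (number 4345), which had no other region before it. The 147 kb before it compare with 51.1 kb before the first region of IV, the next longest left end of the 6 chromosomes. At the right end of X, 61.1 kb of the span followed the last region. Replicates 1 and 2 listed 13 and 11 weak regions inside the stretch, the best being numbers 9308 and 12315, and 8 of the 13 were shared. The next stretches were X 12725136 to 12854007 (129 kb) and X 12252411 to 12363041 (111 kb). The first of these held 4 regions in each replicate, none of which overlapped the other replicate, and the second held 12 and 9, of which 6 of the 12 were shared. The fourth, X 17222434 to 17312190 (89.8 kb), held 6 and 13 replicate regions with 1 of the 6 shared, and the fifth, X 1713940 to 1801610 (87.7 kb), held 8 and 6 with 5 of the 8 shared.

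Clusters of neighbouring regions held about the same share of regions on X as on all chromosomes in the combined list as deposited. When chromosomes were cut by rank to equal numbers per Mb, X had a smaller share than 4 of the 5 autosomes. A cluster was a run of 2 or more regions with gaps of at most 1 kb. On X, 850 of the 2009 regions (42.3%, 95% Wilson interval 40.2 to 44.5, which covers counting error only) lay in 341 clusters, against 42.4% of all combined regions. Of these clusters, 236 had 2 regions, 67 had 3, 25 had 4 and 13 had 5 or more. In the replicates' own lists the share on X was 46.3% and 43.8%, and on the autosomes 42.7% and 41.7%. In the combined list the shares on I (44.8%) and II (44.7%) were above that on X, and in replicate 1 that on II was, at 46.5%. X was highest in replicate 2, with I next at 43.4%. The chromosomes differ in regions per Mb, so they were also compared after a cut to equal numbers. With the same number of regions per Mb on every chromosome, 25.5% of X regions lay in clusters, against 24.9% on III, 27.4% on I, 32.5% on IV, 33.7% on II and 41.8% on V. This cut kept the best-numbered regions, 1024 of the 2009 on X and all 1209 on V. A poorly numbered region close to a better one could thus be lost on X but not on V. The part of this in the shares was not tested.

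The largest cluster on X, from 8648488 to 8654920 (6.43 kb), held 9 combined regions, which merged to 6 where regions overlapped. Replicate 1 had 9 regions there and replicate 2 had 11, and all 9 combined regions were found in both. Its numbers ran from 164 to 8617, so a strong region stood beside weak ones. The cluster at X 7284775 to 7291040 held 8 regions whose best number was 1619. That at X 11605607 to 11609141 held 7, which merged to 4, with 321 as its best number. The next, at X 5865891 to 5869995 and X 11382234 to 11388218, held 6 regions each, with best numbers of 655 and 46. Another cluster of 6 lay at X 13198113 to 13201642, with 1287 as its best number.

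Regions in clusters were not of better rank as a whole. The authors' score, of unstated scale, is at its ceiling in 53.3% of all combined regions, and in 1021 (50.8%) of those on X. Among X regions the share at the ceiling was 50.8% for single regions, 49.4% in clusters of 2, 50.8% in clusters of 3 or 4 and 59.7% (Wilson interval 48.6 to 70.0) in clusters of 5 or more, which held only 77 regions. A region numbered up to 1000 was present at 114 of the 1159 single sites (9.84%), in 49 of 236 clusters of 2 (20.8%), in 30 of 92 clusters of 3 or 4 (32.6%) and in 9 of the 13 largest (69.2%). Larger clusters hold more regions, and the part of this in the rise was not tested. On the autosomes the same shares were 11.1%, 21.9%, 35.3% and 60.9%.

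The share of regions that lay on X changed with rank in the same way in both replicates. X makes up 17.7% of the span. Of the regions numbered 1 to 3000, X held 21.6% in replicate 1 and 21.9% in replicate 2. The share was 23.1% in both for numbers 3001 to 6000 and highest for 6001 to 9000, at 23.4% (Wilson interval 22.0 to 25.0) and 25.1% (23.6 to 26.7). It then went down to 19.4% (18.0 to 20.8) and 19.8% (18.4 to 21.3) for numbers 27001 to 30000. The highest share thus lay in the third bin of each list, and all 20 shares were above the share of the span. Exceeding the share of the span was not particular to X. In the combined list I and III did so too, III with 15.3% of the regions and 13.7% of the span. X held 113 combined regions per Mb, I 103 and III 96.5, against 84.7 on II, 73.6 on IV and 57.8 on V. The intervals of numbers 1 to 3000 (20.1 to 23.1 in replicate 1, 20.5 to 23.4 in replicate 2) and of 6001 to 9000 overlapped in replicate 1 and did not in replicate 2. In the combined list the share was 21.6% for numbers 1 to 1000, 20.8% for 1001 to 2000 and 25.7% for 6001 to 7000. Of the first 100, 28 lay on X (28.0%, 20.1 to 37.5). This interval includes both the 21.6% of numbers 1 to 1000 and the share of the whole list. The share was 22.8% in the first 250 and 20.2% in the first 500.

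**Figure D3:**
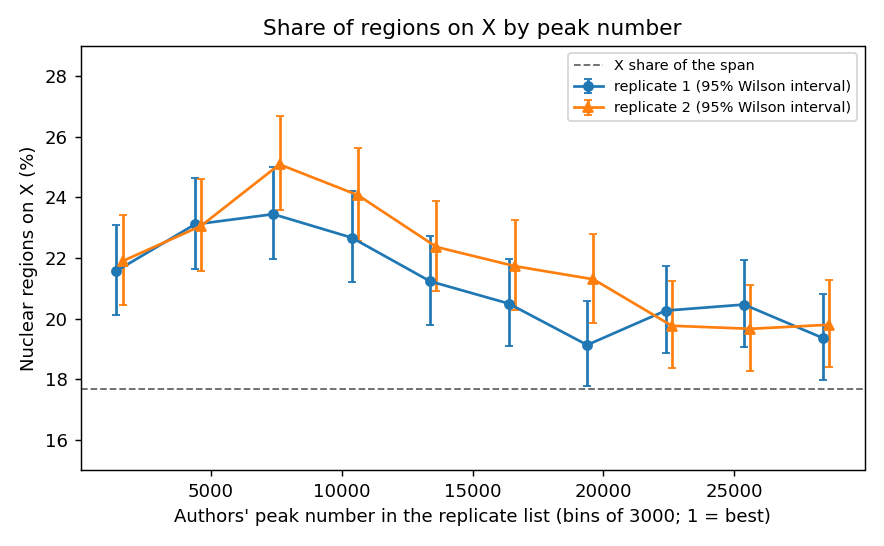
Share of nuclear regions that lie on X in percent (vertical axis, starting at 15) by the authors' peak number in bins of 3000 (horizontal axis) in replicate 1 (circles) and replicate 2 (triangles), with 95% Wilson intervals, and the X share of the span (dashed line, 17.7%). Both replicates are highest at numbers 6001 to 9000, with 23.4% and 25.1%, and end at 19.4% and 19.8%.

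Most X regions of better number were narrower than 440 bp and most of the rest had this width. Of the 10 best-numbered X regions, however, 8 were wider than 440 bp, and of the first 100, 35 were wider and 65 narrower. The width of 440 bp was listed for 1422 X regions (70.8%), against 68.9% of all combined regions, while 528 were narrower and 59 wider. None of the 216 X regions numbered 1 to 1000 had this width, 176 being narrower and 40 wider. In numbers 1001 to 2000, 187 of 208 were narrower, with a median width of 227 bp over the 208. The 440 bp regions made up 51.8% of the X regions in numbers 2001 to 3000 and 98.1% in 6001 to 7000. The share of narrower regions in numbers 1 to 1000 was 81.5% on X and 86.0% on the autosomes, and 89.9% and 88.8% in the next 1000.

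The extremes of width carried different ranks. The narrowest X regions were 110 bp wide, a width shared by 15 of them, the best numbered being at X 1598216 to 1598325 (number 1256), X 2402083 to 2402192 (1544) and X 13143268 to 13143377 (1550). The widest interval, 1064 bp at X 11605607 to 11606670, was listed 4 times, with numbers 2039, 2812, 3632 and 4426. Replicates 1 and 2 each listed 4 regions across it. The next widest were X 11569655 to 11570391 (737 bp, number 134) and X 2996739 to 2997472 (734 bp, number 40). The latter was also listed a second time, as number 5194.

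Repeated intervals occurred on X as on the other chromosomes. On X, 15 intervals were listed more than once and accounted for 32 regions (1.59%), against 1.45% on the autosomes. The number 3 region at X 10765961 to 10766513 was listed again as number 876, and X 13700439 to 13701040 had numbers 62 and 8642. The first number was within 1000 at 13 of the 15 intervals, and 12 were wider than 440 bp. At 5 of the 15, replicate 1 also held a repeated interval, and at 10 replicate 2 did. Counting these repeats, 267 X regions (13.3%) overlapped or touched another, against 13.8% on the autosomes.

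**Figure D4:**
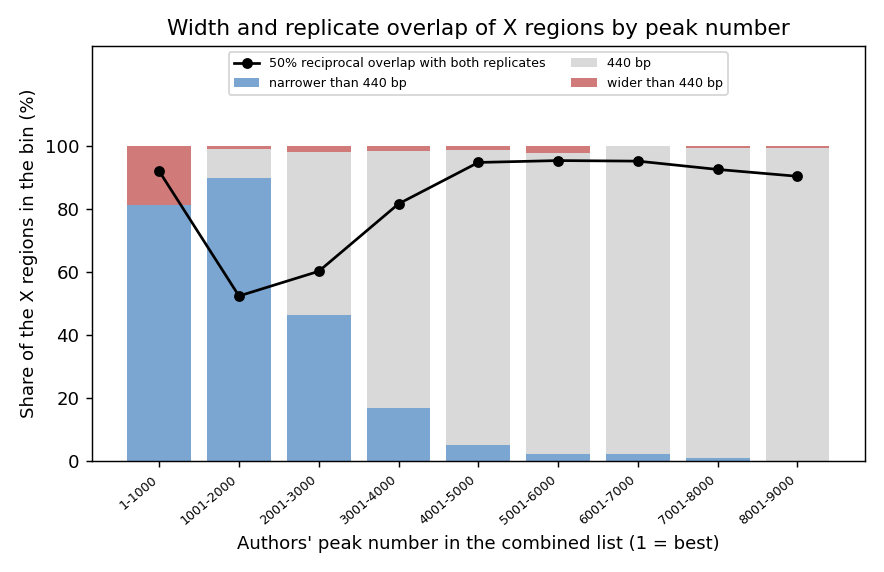
X regions by the authors' peak number in the combined list (horizontal axis, bins of 1000), with bars for the share that was narrower than, equal to and wider than 440 bp and a black line for the share with 50% reciprocal overlap in both replicates (vertical axis, percent). Narrow regions make up 89.9% of numbers 1001 to 2000, where the reciprocal overlap is lowest, at 52.4%.

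Nearly every X region was found in both replicates. By an overlap of at least 1 bp the count was 1980 of 2009 (98.6%, Wilson interval 97.9 to 99.0), beside 98.7% of all combined regions. With 50% reciprocal overlap it was 1696 (84.4%), beside 83.7%, and with centres within 200 bp it was 1945 (96.8%), beside 97.3%. The combined list comes from the same replicates, so this recovery is no independent check. Reciprocal overlap on X did not follow rank. It was 92.1% for numbers 1 to 1000, 52.4% for 1001 to 2000, 60.3% for 2001 to 3000 and 81.7% for 3001 to 4000, and stayed between 90.5% and 95.5% beyond that. On the autosomes it was 51.8% for 1001 to 2000 and 57.1% for 2001 to 3000. The bins with the lowest values were those with many narrow regions outside the first 1000, and the part of width in this was not tested. The centres lay close in the same bins, at a median of 16.0 bp from replicate 1 and 10.5 bp from replicate 2 for numbers 1001 to 2000.

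The 29 X regions found in only 1 replicate were mostly of poor rank, with a median number of 6922. Of the 29, 6 were at the score ceiling, against 1021 (50.8%) of all 2009 regions on X. Replicate 2 alone held 22 and replicate 1 alone 7 of the 2009. On the autosomes the counts were 50 and 34 of 6669, and on all chromosomes 72 and 41 of 8678. The best numbered were X 15668705 to 15668883 (number 2563) and X 12393362 to 12393710 (number 2733), both present in replicate 1, where the second overlapped number 1499. Next came X 14101921 to 14102360 (3122), X 10332198 to 10332637 (3316) and X 8476076 to 8476515 (3639), all present in replicate 2.

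The replicates ranked the X regions of the combined list alike to within a modest factor. That list comes from the same replicates, and the lists name a comparison of ranks between replicates as a source. This closeness is therefore no independent check. Over the 1980 regions found in both, the best overlapping peak numbers differed by a median of 0.46 on the log2 scale, with quartiles of 0.21 and 0.80, and by more than 1 (a factor of 2) in 301 (15.2%). The median was 0.46 on the autosomes as well, and 15.02% of their regions differed by more than 1. Combined regions that overlap each other can be given the same replicate numbers, so the 1980 pairs are not all distinct. In 1009 of the 1980 (50.96%) the number was higher in replicate 2, so neither replicate ranked X regions better throughout. The median difference on X was 0.52 for combined numbers 1 to 1000, 0.37 for 5001 to 6000 and 0.53 for 8001 to 9000. On X, 202 of the 2009 regions overlapped the first 1000 of both replicates, against 712 of 6669 on the autosomes.

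**Figure D5:**
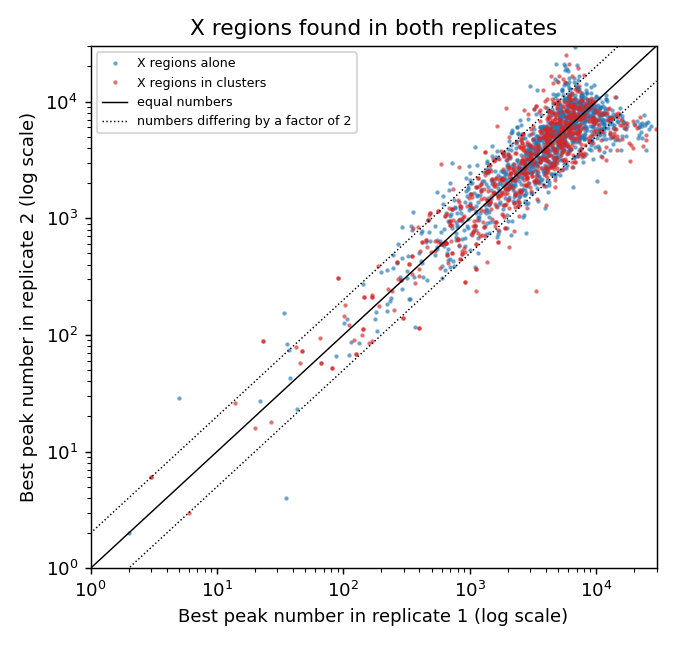
Best overlapping peak number in replicate 1 (horizontal axis, log scale) and replicate 2 (vertical axis, log scale) for the 1980 X regions found in both, with single regions in blue, regions in clusters in red, equality as a solid line and a factor of 2 as dotted lines. Most points lie between the dotted lines, with 301 (15.2%) outside them, and single and clustered regions overlie each other. Regions that overlap each other can share a point, and the regions shown come from a list made from the same replicates.

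The full replicate lists held many more X regions than the combined one. Replicate 1 listed 6348 on X and replicate 2 listed 6557, of which 4481 (70.6%, Wilson interval 69.5 to 71.7) and 4499 (68.6%, 67.5 to 69.7) overlapped the other replicate. Over all nuclear chromosomes the shares were 67.1% and 67.6%, and on the autosomes 66.2% and 67.3%. Chromosome II was close to X in both replicates, at 69.5% and 68.3%, and I was above it in replicate 2, at 69.4%. A denser list overlaps more by chance, and that part was not tested. In replicate 1, 3933 X regions (222 per Mb) lay outside the combined list. The count in replicate 2 was 4130 (233 per Mb), against 191 and 187 per Mb on the autosomes together. Replicate 1 had more per Mb on III (234) and on I (226) than on X, and in replicate 2 these had 225 and 224. Of the X regions outside the combined list, about as many were shared between the replicates in each, 2077 and 2098.

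Few regions at the score ceiling of a replicate were left out, on X as on all chromosomes. Of 843 X regions at the score ceiling of replicate 1 that overlapped a ceiling region of replicate 2, 1 (0.119%) overlapped no combined region, against 0.879% of such regions on all nuclear chromosomes. It lay at X 3655743 to 3656182, was number 3993 in replicate 1 and 4770 in replicate 2, and stood 5.34 kb from the nearest combined region. Of the 898 X regions at the ceiling in replicate 1, 6 (0.668%) overlapped nothing in the full list of replicate 2, against 0.871% on all nuclear chromosomes. The converse count was 29 of 1250 (2.32%), against 2.65%, the best being number 318 of replicate 2.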

How the data were processed

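The region lists of 2 ChIP libraries and 1 combined list were used, and Input lists were not analysed here. Per the file headers the build is WormBase WS220. The deposited lists name as their source SPP (a peak caller) and IDR (a comparison of ranks between replicates). For the aligner, the versions and the thresholds nothing is given in the sources used here. Each deposited region has the authors' score, of unstated scale, used only to mark its ceiling within a list. The authors' peak number was used as the rank. Below the ceiling it followed the score with a Spearman's rho of -0.996 in the combined list, so the order is not strictly that of the score. Starts and ends are in bp, and width is end - start + 1. 

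Measures were computed in Python 3.11.15 (pandas 2.3.3, numpy 2.4.6, scipy 1.17.1), plotted with matplotlib 3.10.9, and the steps were tested on simulated data. Chromosome lengths were not used here: the end of the last region in the lists replaced them. Shares have 95% Wilson intervals, which treat regions as independent, although neighbours are not. Named regions are the 10 best-numbered, the 3 narrowest and 3 widest, the 5 largest clusters (with a sixth tied in size), the 5 longest stretches, the 5 best-numbered found in 1 replicate, strong pairs left out, and the 3 densest and 3 sparsest windows. The first region of X and the repeated intervals were named after their values were seen. Members and measures were chosen with earlier results of these data known. Depth per sample is unknown, which limits what can be said of weak regions.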

Additional observations from a re-analysis of the deposited data

How the results depend on the processing

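Of 44 recomputed values for 10 results, 11 stayed within a limit set for each result and 33 moved by more. The limit was the spread between replicates or the counting interval. For stretches over 100 kb it was instead a set ratio between the counts. Whether an order between chromosomes reversed was not scored. With the 4339 best-numbered combined regions, the X share was 21.7%, the density ratio of X to autosomes was 1.29 (1.40 in the whole list), the median spacing was 9.09 kb, the share found in both replicates was 99.4%, the share 440 bp wide was 41.04%, the central share was 35.7%, the variation between 1 Mb windows was 17.4% and there were 13 stretches over 100 kb, more than the 7 on III, so that the order of the whole list (3 on X, 5 on III) turned. Fewer regions lengthen distances by construction. With overlapping regions merged, spacing was 3.89 kb, the clustered share 34.5%, the central share 35.99% (35.4% as listed) and the variation 18.4%. Without chromosome V the density ratio was 1.28. With 50% reciprocal overlap 84.4% of X regions were found in both replicates, and with centres within 200 bp 96.8%. Gaps of at most 500 bp gave a clustered share of 26.03%, and of at most 2 kb 61.5%. The middle 50% of the span held 53.96% of X regions. The variation was 26.5% in 500 kb windows and 13.4% without the first and last 2 Mb. With X cut to the number per Mb of the sparsest chromosome, spacing was 7.98 kb, the clustered share 25.5%, the variation 18.4% and the long stretches 13. The full lists of replicates 1 and 2 had 1 and 0 stretches over 100 kb. The cause of the other shifts was not tested.

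Leaving out 1 replicate (the best-numbered regions of the other were used) gave X shares of 22.7% to 23.1%, density ratios of 1.37 to 1.40, spacings of 3.38 to 3.40 kb, clustered shares of 43.8% to 46.3%, central shares of 35.1% to 35.6%, variation of 19.4% to 19.99% and 3 to 4 long stretches. These are the values behind the replicate spreads, so they add no check. The alternatives for variation and long stretches, and equal numbers per Mb for spacing and clusters, were chosen after seeing the data. No paired analysis was possible because Input lists were not used here and no result comes from a test. With depth unknown, weak X regions missing from the lists cannot be judged.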
